A study of Mus musculus with 10 samples.

Results

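The Zfp genes are the mouse genes named as zinc finger proteins with a number, and the chromatin over their bodies was described here from the lists of ChIP-seq summits of 1 hepatocyte line. Members were all protein-coding genes of chromosomes 1 to 19 whose symbol in the GENCODE annotation of the mm10 build was Zfp followed by digits only, which gave 358 of 20807 autosomal protein-coding genes. The rule used names and no measured value, though it was set with earlier results of these data known. The cells were AB17, hepatocytes of a C57BL/6 mouse with loxP-flanked Arid1a alleles (Arid1a fl/fl) made permanent by SV40 large T antigen and given activated H-Ras, so that both genotypes carry these 2 transgenes. Infection with Ad-GFP left Arid1a in place (WT), and infection with Ad-Cre, an adenovirus with Cre recombinase, removed it (KO). The series held 10 samples with 1 library per group, of which 8 came with a list of summits: the marks H3K9me3 and H3K27me3 for each genotype, and the factors Arid1a, Brg1, Ctcf and Rad21 for WT cells only. The 2 inputs entered through the peak calling and were not analysed here by themselves. With 1 library of 1 line per group there was no replicate check and no test, and no p-value is given. Intervals are 95% intervals that cover counting error only, and they treat neighbouring summits as separate events although a broad region can carry several.

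Zinc finger proteins of this kind read DNA with tandem C2H2 fingers, which are joined by a short linker peptide and are usually encoded by 1 long last exon. Many carry a KRAB domain, which recruits the corepressor TRIM28 and with it the methyltransferase SETDB1, and these proteins are best known for placing H3K9me3 on retroelements and at imprinted regions. Their genes multiplied by tandem duplication and lie in clusters, and the exons that encode the fingers are themselves known to carry H3K9me3. H3K27me3 is the mark of Polycomb repression, Arid1a and Brg1 are subunits of the SWI/SNF remodelling complex, Ctcf is an insulator protein and Rad21 is a subunit of cohesin.

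Each gene was divided into its first 2 kb (the start), its last 2 kb (the 3' end) and the stretch between (the body). A member was called clustered when another Zfp gene lay within 200 kb and isolated otherwise. By this rule 227 members were clustered, in 51 clusters, and 131 were isolated. Chromosome 7 held 89 members, chromosome 17 held 41, chromosome 13 held 31 and chromosome 4 held 30. The median length of a member was 17402 bp, against 17636 bp for the other coding genes, and clustered members were shorter (median 15817 bp) than isolated ones (median 21563 bp). Translation of the longest annotated coding sequence checked the family name, and gave a median of 10.5 C2H2 fingers per member, a highest value of 36 and 33 members with fewer than 3. A KRAB-like signature was found in 163 members, which were 134 of the clustered (59.0%) and 29 of the isolated (22.1%) genes. The signature is strict and misses divergent domains, so a member without it is not thereby shown to lack KRAB.

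Coding DNA beside H3K9me3 summits found in both genotypes near the 3' end is shown for 5 members, so that the linker can be seen where it was present. Each line gives 300 bases of coding exon in mm10, read 5' to 3' on the strand of the gene from the RefSeq copy of GRCm38, with every match to the linker codons ACNGGNGANAANCCN in capitals. Zfp978 (chr4:147390200-147390499, plus strand), Zfp991 (chr4:147179310-147179609, plus strand) and Zfp777 (chr6:48024632-48024931, minus strand) were the 3 members with the strongest shared summits. Pairs were ranked by the weaker of their WT and KO −log10 q-values, so a member ranked lower can hold a stronger single summit. The summit lay inside the stretch in Zfp991 alone, and for Zfp978 and Zfp777 the nearest coding stretch is shown. Zfp605 (chr5:110128720-110129019, plus strand) and Zfp958 (chr8:4628925-4629224, plus strand) were added after the values were seen, as the next members whose WT summit fell inside a coding exon.
Zfp978: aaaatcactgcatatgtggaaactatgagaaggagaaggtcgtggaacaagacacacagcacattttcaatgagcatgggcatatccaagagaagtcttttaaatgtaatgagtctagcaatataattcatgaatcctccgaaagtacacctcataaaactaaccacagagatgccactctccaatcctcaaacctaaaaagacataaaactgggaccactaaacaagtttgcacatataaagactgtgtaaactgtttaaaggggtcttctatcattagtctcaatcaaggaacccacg
Zfp991: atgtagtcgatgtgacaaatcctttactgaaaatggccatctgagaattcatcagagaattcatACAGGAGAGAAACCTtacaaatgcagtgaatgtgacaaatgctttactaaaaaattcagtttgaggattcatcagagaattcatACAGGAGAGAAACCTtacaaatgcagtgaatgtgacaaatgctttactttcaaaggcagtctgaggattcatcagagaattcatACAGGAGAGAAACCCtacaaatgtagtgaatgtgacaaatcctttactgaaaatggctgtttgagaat
Zfp605: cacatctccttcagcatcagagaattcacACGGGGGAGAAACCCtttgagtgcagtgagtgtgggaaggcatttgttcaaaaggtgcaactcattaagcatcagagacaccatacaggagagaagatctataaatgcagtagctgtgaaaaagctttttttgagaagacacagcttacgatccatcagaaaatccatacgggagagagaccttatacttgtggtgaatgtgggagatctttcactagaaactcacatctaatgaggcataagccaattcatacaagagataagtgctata
Zfp958: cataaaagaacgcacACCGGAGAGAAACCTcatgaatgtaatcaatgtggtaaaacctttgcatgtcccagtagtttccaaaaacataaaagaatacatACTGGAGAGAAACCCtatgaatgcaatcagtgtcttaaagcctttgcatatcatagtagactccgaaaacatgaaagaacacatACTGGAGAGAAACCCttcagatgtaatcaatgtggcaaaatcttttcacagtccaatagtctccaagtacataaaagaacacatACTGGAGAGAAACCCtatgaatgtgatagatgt
Zfp777: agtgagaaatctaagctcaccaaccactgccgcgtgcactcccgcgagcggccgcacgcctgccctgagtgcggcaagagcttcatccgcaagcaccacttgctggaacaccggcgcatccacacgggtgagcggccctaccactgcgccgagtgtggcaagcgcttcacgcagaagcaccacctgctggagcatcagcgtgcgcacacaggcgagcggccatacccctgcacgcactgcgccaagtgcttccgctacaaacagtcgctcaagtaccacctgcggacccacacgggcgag
The stretch of Zfp958 held 4 matches, that of Zfp991 held 3, that of Zfp605 held 1 and those of Zfp978 and Zfp777 held 0, which says only that these letters were absent from those windows. Of the 3 members with the strongest shared summits, Zfp991 alone thus had linker matches in its stretch. In Zfp991 the summit at 147179460 in WT cells had a −log10 q-value of 6.72, and the KO summit lay 4 bp away with a value of 10.4. In Zfp605 the paired summits had values of 8.21 in WT and 6.30 in KO cells and lay 176 bp apart. In Zfp958 they had values of 5.59 and 6.95 and lay 484 bp apart. In Zfp777, where the summit lay in the 3' UTR, the values were 6.59 and 6.37. Zfp978 on chromosome 4 had the strongest pair, 6.94 in WT and 11.2 in KO cells at 83 bp from each other, in an intron 590 bp from coding sequence. In all, 77 of the 358 members had H3K9me3 summits of both genotypes within 1 kb of each other in the last 2 kb, where 2.05% of all coding genes did, and 62 of these were clustered genes.

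H3K9me3 was dense over the Zfp genes in both genotypes. WT cells had 1537 H3K9me3 summits in the members, or 142 per Mb (135 to 149), against 64.3 per Mb in the other coding genes, a ratio of 2.21 (2.10 to 2.32). KO cells had 1547 summits, or 143 per Mb (136 to 150), against 43.9 per Mb in the other genes, a ratio of 3.25 (3.09 to 3.42). At least 1 H3K9me3 summit was found in 293 members (81.8%) in WT and in 259 (72.3%) in KO cells, where the share over all autosomal coding genes was 63.3% and 45.6%. The median was 3 summits per member in WT and 2.5 in KO cells, against 1 and 0 in the other genes. The members were denser in H3K9me3 than the other coding genes of the same chromosome on 18 of 19 chromosomes in WT and on 17 of 19 in KO cells. More of the summits were strong, since a −log10 q-value of 5 or more was reached by 8.94% of those in members in WT cells and by 14.5% in KO cells, against 3.16% and 3.68% in other genes. The median −log10 q-value was 2.64 both in members and in other genes in WT cells, and in KO cells it was 2.92 in members, 2.47 in isolated members and 2.47 in other genes.

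The excess grew toward the 3' end of the genes. In WT cells the members had 183 H3K9me3 summits per Mb in the first 2 kb (130 summits), 131 in the body (1232) and 247 in the last 2 kb (175), where the other coding genes had 155, 60.4 and 70.3. In KO cells the members had 74.7 per Mb at the start (53 summits), 141 in the body (1325) and 238 at the 3' end (169), against 39.9, 44.4 and 35.8 in the other genes. At the 3' end the members were therefore 3.51 times (2.99 to 4.09) as dense as other genes in WT and 6.65 times (5.63 to 7.80) as dense in KO cells. Within the members, the ratio of 3' end to start summits was 1.35 (1.07 to 1.70) for the WT list. For the KO list it was 3.19 (2.33 to 4.43), and the other genes had 0.45 and 0.90. Other coding genes with at least 3 fingers had a WT ratio of 0.80 (interval 0.60 to 1.08). Their KO ratio was 1.90 (interval 1.28 to 2.86), so a KO value above 1 was not particular to Zfp genes. The WT value of members rests on the window, since with windows of 1 kb it was 1.03 (0.74 to 1.42), while their KO value was then 3.07. Both values also depend on summit strength. Among member summits with a −log10 q-value of 5 or more, the WT ratio was 6.25 (interval 2.16 to 24.7). The KO ratio was then 5.80 (interval 2.22 to 19.2), so the difference between genotypes was not seen among strong summits, within wide intervals.

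Counted by gene, 137 members (38.3%) had an H3K9me3 summit in the last 2 kb in WT cells, where 12.4% of all coding genes did. In KO cells 136 members (37.99%) had one, where the share of all genes was 6.66%. A 3' summit in both genotypes was found in 85 members (23.7%), against 2.27% of all genes. These were 69 clustered and 16 isolated genes. At the start the members stood closer to the background, with 111 (31.0%) in WT cells against 25.7%, 46 (12.8%) in KO cells against 7.11%, and 19 in both genotypes (5.31%) against 2.63%.

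**Figure D1:**
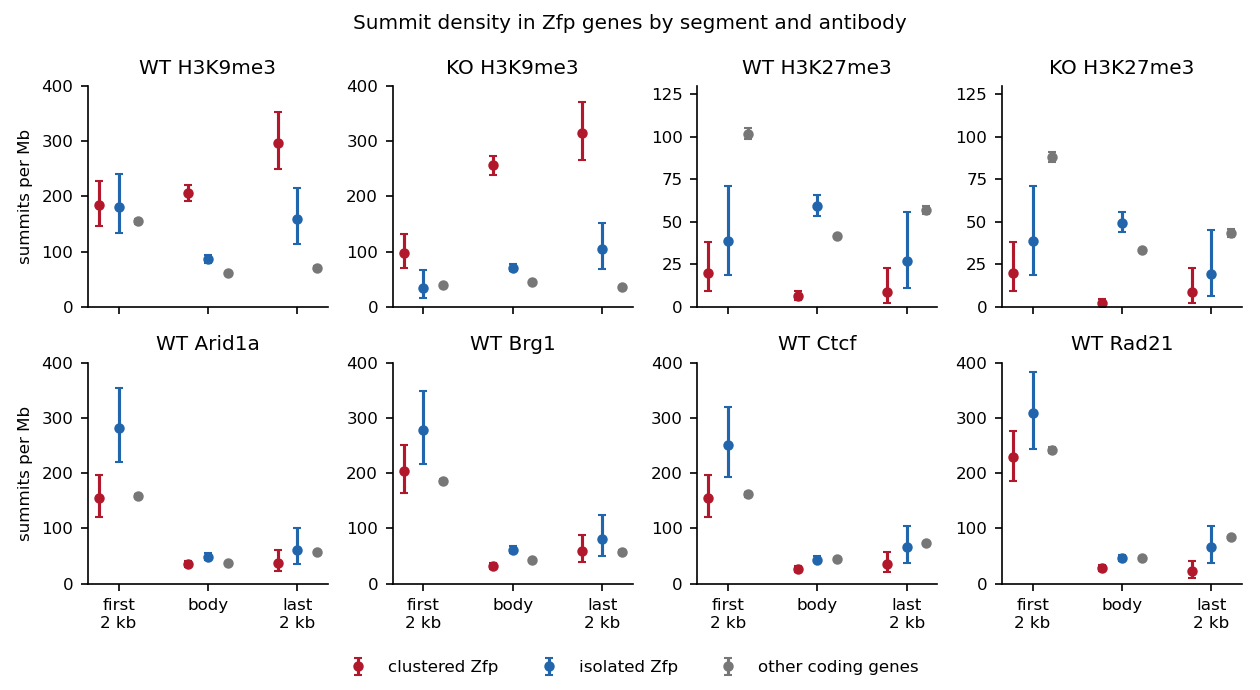
Summits per Mb in the first 2 kb, the body and the last 2 kb of clustered Zfp genes (red), isolated Zfp genes (blue) and other coding genes (grey), 1 panel per list, with exact Poisson 95% intervals as bars; the H3K27me3 panels have a smaller vertical range. Clustered genes reached 297 (WT) and 315 (KO) H3K9me3 summits per Mb at the 3' end, while their H3K27me3 stayed at or under 19.98 per Mb in every segment.

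Per Mb, clustered members were denser in the mark than isolated ones. By gene, a summit was found in 81.5% of clustered and 82.4% of isolated members in WT cells. In KO cells the shares were 77.1% and 64.1%. The median was 3 summits per clustered and 2 per isolated member in each genotype. The H3K9me3 density of clustered members over the whole gene was 213 per Mb (199 to 227) for the WT and 246 (232 to 261) for the KO list. Isolated members had 92.7 and 70.8, which gave ratios of 2.29 (2.07 to 2.55) and 3.48 (3.11 to 3.89). Isolated members still exceeded the other coding genes, at 64.3 and 43.9 per Mb. At the 3' end the clustered genes had 297 summits per Mb in WT and 315 in KO cells, and the isolated genes had 158 and 104. At the start the 2 classes had almost the same density in WT cells (184 and 181 per Mb), whereas in KO cells the clustered genes had 97.7 and the isolated genes 34.7. Among members of 30 kb or more clustered genes had 178 and isolated genes 78.5 per Mb in the WT list, and 299 and 58.7 in the KO list. Between 10 and 30 kb the values were 229 and 145 in WT, and 227 and 122 in KO cells. Under 10 kb the intervals overlapped, with 225 (175 to 286) and 195 (127 to 286) in WT cells, and 165 (122 to 218) and 105 (57.4 to 176) in KO cells.

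The profile along the genes placed the high ground of H3K9me3 upstream of the annotated end. In clustered genes the densest 1 kb of the WT list lay 2 to 3 kb before the end, at 335 summits per Mb (264 to 419), and the kb after the end had 229. In KO cells the 4 kb before the end ran between 291 and 335 per Mb. In isolated genes the WT density was highest 1 to 2 kb before the end, at 206 per Mb (136 to 300). These bins overlap in their intervals, so the position of the maximum within the last 4 kb is not resolved.

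**Figure D2:**
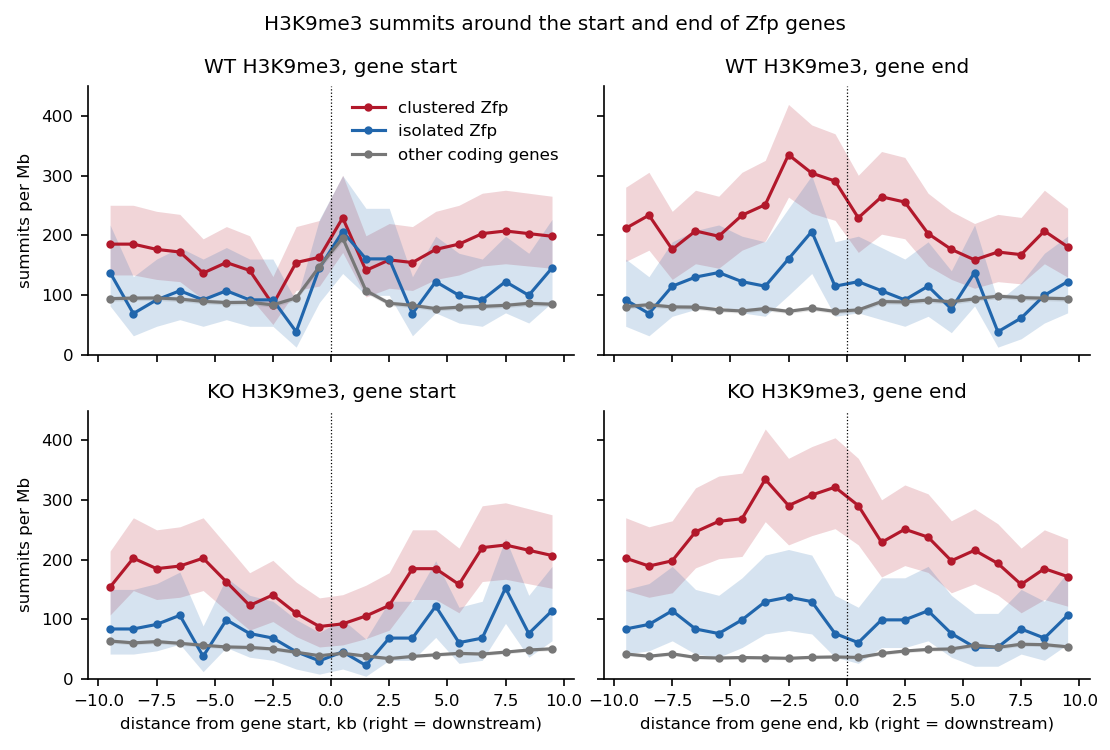
H3K9me3 summits per Mb in bins of 1 kb from 10 kb before to 10 kb after the start (left) and the end (right) of clustered Zfp (red), isolated Zfp (blue) and other coding genes (grey), in WT (top) and KO cells (bottom), with 95% Poisson intervals as bands. A narrow rise at the start appears in WT and not in KO cells in every class, and clustered genes stay above 200 per Mb over the last 4 kb in both.

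Inside the genes, the coding exons were the densest part. In WT cells the members had 315 H3K9me3 summits per Mb of coding exon, 175 per Mb of UTR and 125 per Mb of intron, and in KO cells 251, 160.0 and 133. The other genes had 104, 80.7 and 61.9 in WT cells. Introns make up most of the length, and 73.2% of the WT and 77.3% of the KO summits in members lay there. Coding exons were then divided into finger exons, which held at least 3 linker matches, and the rest. Finger exons were found in 214 members, with a median length of 1431.5 bp. In these exons WT cells had 139 H3K9me3 summits, or 434 per Mb (365 to 513), against 215 per Mb (171 to 266) in the other coding exons of members, a ratio of 2.02 (1.53 to 2.69). In KO cells finger exons had 124 summits, or 388 per Mb (322 to 462), against 136 (102 to 179), a ratio of 2.85 (2.04 to 4.01). Finger exons of coding genes not named Zfp were dense as well. Their WT density was 273 per Mb (interval 196 to 371), beside 103 in the remaining coding exons of such genes. For the KO list these values were 327 (interval 242 to 432) and 45.6. Both intervals overlap those of members, the WT one only narrowly. Dense finger exons were thus not particular to Zfp genes.

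Clustered and isolated genes were then taken apart. In isolated genes the finger exons had 474 H3K9me3 summits per Mb in WT (33 summits) and 373 in KO cells (26 summits), while their other coding exons had 142 and 74.9, so the ratio was 3.35 (2.01 to 5.57) and 4.98 (2.63 to 9.64). In clustered genes finger exons had 423 and 391 per Mb, and the other coding exons were also dense, at 339 and 240, with ratios of 1.25 (0.88 to 1.80) and 1.63 (1.09 to 2.49). The other antibodies had few summits in finger exons of members. No H3K27me3 summit fell in them in either genotype, and the exact interval then runs up to 11.5 per Mb. Rad21 had 5 summits there and Ctcf 3, with finger to other coding ratios of 0.16 (0.049 to 0.41) and 0.13 (0.025 to 0.41), and Brg1 had 9, with a ratio of 0.40 (0.16 to 0.87).

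Single summits were then set against the linker itself. The linker codons, searched on both strands, had 1796 matches in members, of which 1770 (98.6%) were on the coding strand. In the WT list 9.33% (7.98 to 10.9) of the H3K9me3 summits in members had a match within 250 bp. In the KO list 8.71% (7.397 to 10.2) had one, while 3.21% of all tiles of the same width in these genes held one. Within clustered genes 11.7% of the WT and 10.03% of the KO summits had a match, against 6.02% of their tiles, and within isolated genes 5.60% and 5.56%, against 1.26%. For Brg1 the share was 2.05%, for Arid1a 1.88%, for Ctcf 0.97%, for Rad21 0.69% and for WT H3K27me3 0.25%. In other coding genes 0.10% of tiles and 0.18% of WT H3K9me3 summits had a match. Most H3K9me3 summits in members thus had no linker match near them. Finger exons of related genes are alike in sequence, and how reads that map to several places were handled was not given in the sources used here, so a summit may be placed in a wrong copy or missing from the right one.

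The genotypes differed by position and by class of gene. Summits over the whole members were almost equal in number, with a KO over WT ratio of 1.01 (0.94 to 1.08), while the other coding genes had 0.68 (0.67 to 0.69). Relative to the other genes the members were 1.47 times (1.37 to 1.58) as high. At the 3' ends of members the ratio was 0.97 (0.78 to 1.20), against 0.51 in other genes, and at their starts it was 0.41 (0.29 to 0.57), against 0.26. The 302 other coding genes with at least 3 fingers had 0.84 (0.77 to 0.91) over the whole gene. They had 0.88 (0.64 to 1.22) at the 3' end and 0.37 (0.25 to 0.54) at the start. A ratio above that of other genes was thus not particular to Zfp genes. Sequencing depth was unknown and the KO list was shorter (131430 autosomal summits against 141657 in WT). Only the ratios relative to other genes in the same pair of lists can therefore be read across. That reference is a low one, since KO summits fell short by more in other coding genes than over the whole lists. With both lists cut to the same length the ratio of members was 1.07 (0.995 to 1.15), and 1.45 (1.35 to 1.56) relative to other genes. On 13 of 19 chromosomes the KO over WT ratio of the members was above that of the other genes, and it was largest on chromosomes 13 (1.80), 4 (1.53) and 17 (1.29).

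Clustered members had 948 WT and 1097 KO H3K9me3 summits, a ratio of 1.16 (1.06 to 1.26), and isolated members 589 and 450, a ratio of 0.76 (0.67 to 0.87). These and the following ratios stand beside the 0.68 of other coding genes. The whole lists fell short by less than that, and the ratio of isolated members lay below that of the whole lists. A value of 1 is no reference for equal signal either, since depth was unknown. The KRAB-like signature divided the members further. Members with it had a KO over WT ratio of 1.27 (1.16 to 1.40) and members without it 0.73 (0.65 to 0.82). Clustered genes with the signature went from 211 per Mb in WT to 275 in KO cells (1.31), and clustered genes without it from 216 to 181 (0.84, 0.71 to 0.99). Isolated genes with the signature had 195 and 218 per Mb (1.12, 0.88 to 1.42), and isolated genes without it had 80.2 and 52.9 (0.66, 0.57 to 0.76), an interval that holds the value of other genes. Among genes with the signature, clustered over isolated density was 1.08 (0.90 to 1.31) for the WT list and 1.26 (1.06 to 1.51) for the KO list, and among genes without it 2.70 (2.32 to 3.13) and 3.42 (2.88 to 4.06). Clustered genes with the signature over those without it gave 0.97 (0.85 to 1.12) for the WT list and 1.52 (1.32 to 1.76) for the KO list. Among isolated genes, those with the signature were 2.43 times (1.99 to 2.96) as dense as those without it in WT and 4.13 times (3.37 to 5.04) in KO cells. The 99 coding genes with the signature that are not named Zfp had 190 per Mb in WT and 220 in KO cells, beside 208 and 265 in the Zfp genes with it. These 99 genes held 386 WT and 447 KO summits, so a higher KO count was not particular to Zfp genes with the signature.

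**Figure D3:**
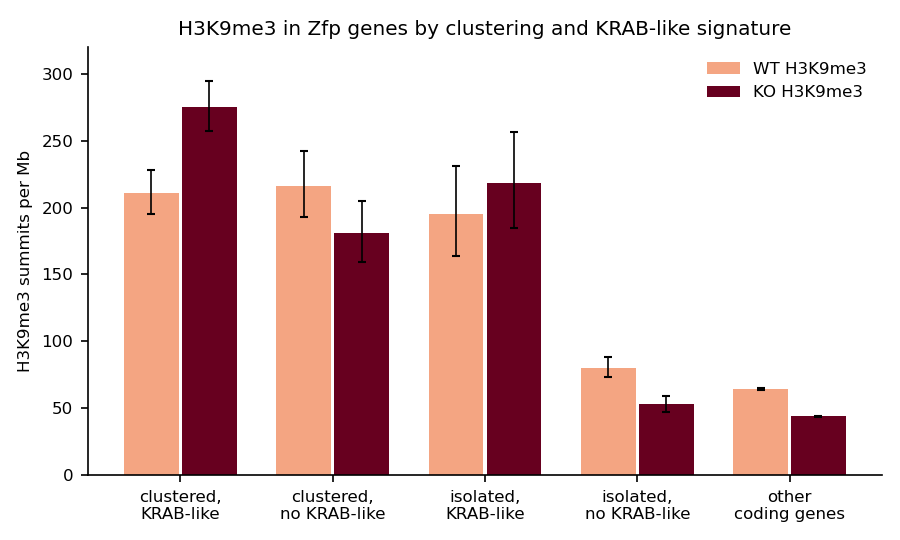
H3K9me3 summits per Mb over whole genes in WT (light bars) and KO cells (dark bars) for Zfp genes divided by clustering and KRAB-like signature and for other coding genes, with exact Poisson 95% intervals. Both classes with the signature have a higher KO than WT bar, with intervals that overlap in isolated genes, and the classes without it have a lower one, as do the other coding genes.

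By a fixed rule a gene was called higher in 1 genotype when that list had at least 3 summits in it and at least 2 times the number in the other list. H3K9me3 was called higher in KO cells in 55 members (15.4%), against 4.54% of all coding genes, and higher in WT cells in 47 members (13.1%), against 17.5% of all genes. The KO calls were 43 clustered and 12 isolated genes, and the WT calls were 23 clustered and 24 isolated genes. Without the fold rule, 122 members had more summits in KO cells, 159 had more in WT cells, 34 had equal numbers and 43 had none in either. More in KO cells was thus found for 34.1% of members and 16.6% of other coding genes, and more in WT cells for 44.4% and 46.3%.

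The 5 members with the largest KO excess all had the KRAB-like signature, and they lay on chromosomes 4, 5, 7 and 13. Zfp936 on chromosome 7 had 9 summits in WT and 28 in KO cells. Zfp951 on chromosome 5, an isolated gene, had 6 and 24. Zfp600 on chromosome 4 had 9 and 23. Zfp935 had 11 and 25 and Zfp934 had 5 and 18, but these 2 genes overlap on chromosome 13 and share part of their summits. The 5 with the largest WT excess were long isolated genes without the signature. Zfp827, which takes part in telomere chromatin in some cells, had 27 in WT and 6 in KO cells. Zfp407 had 30 and 15, Zfp609 had 21 and 6, Zfp704 had 23 and 8 and Zfp532 had 15 and 3. In each of these genes the difference lay almost wholly in the body, since none had more than 1 H3K9me3 summit at its start or any at its 3' end. In WT cells the 5 genes with a WT excess held 6 to 34 summits of Arid1a and 7 to 37 of Brg1. The 5 genes with a KO excess had 0 to 2 of Arid1a and 0 or 1 of Brg1. Ctcf and Rad21 stood in the same order, with 4 to 17 and 7 to 17 summits, against 0 to 2 of each. These are counts per gene and were not set against gene length. Remodellers were not profiled in KO cells, and their part in the H3K9me3 difference was not tested.

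**Figure D4:**
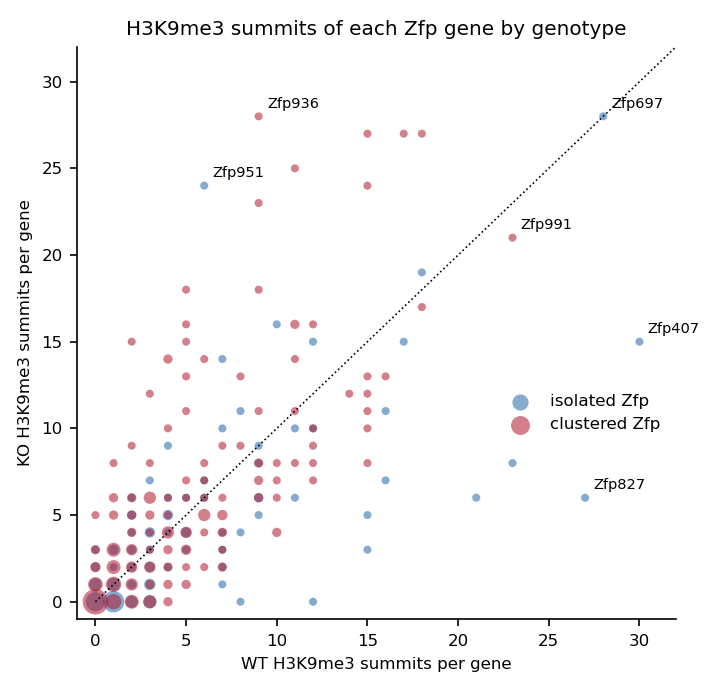
H3K9me3 summits per Zfp gene in WT (horizontal) and KO cells (vertical), with the area of a point growing with the number of genes at that pair of counts and a dotted line where both are equal. Most points far above the line are clustered genes (red), as in Zfp936 with 9 and 28 summits, and those far below it are isolated genes (blue), as in Zfp827 with 27 and 6.

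The 8 members with the highest H3K9me3 counts over both genotypes held 11.4% of the summits in members. Zfp697 on chromosome 3 had 28 summits in WT and 28 in KO cells, over a gene of 371352 bp. Zfp991 had 23 and 21, Zfp950 had 18 and 19, Zfp993 had 18 and 27, Zfp984 had 17 and 27, Zfp943 had 15 and 27 and Zfp442 had 15 and 24, and Zfp407 is given above. Of these 8, all but Zfp697 and Zfp407 had the KRAB-like signature, no H3K27me3 summit in either genotype and a length between 44346 bp and 108617 bp. Zfp697 had 13 WT and 8 KO summits of H3K27me3.

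Over all summits, positions were shared between genotypes more often in members than in other genes. Of the WT H3K9me3 summits in members, 51.9% (49.4 to 54.4) had a KO summit within 1 kb, against 22.1% in other genes. The share was 63.2% in clustered and 33.8% in isolated members. Of the KO summits in members 51.7% had a WT summit that close, against 32.003%. Where summits are dense, more of them lie near another by position alone, and that part was not separated. Strong WT summits, at a −log10 q-value of 5 or more, were matched for 79.6% (72.0 to 85.5) in members and for 62.5% in other genes. Strong KO summits stood in the opposite order, with 71.0% (64.7 to 76.6) in members and 76.6% (74.4 to 78.6) in other genes.

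The large clusters were then compared. There were 16 clusters with at least 5 members, with 139 members in all, and their members had between 81.3 and 407 H3K9me3 summits per Mb in WT and between 71.5 and 430 in KO cells. In 4 of them the interval of the KO over WT ratio lay above the 0.68 of other coding genes, and also above 1, and in none did it lie below 0.68. The cluster from Zfp990 to Zfp600 (chr4:145510759-146198755) had 23 WT and 70 KO summits in its 5 members, a ratio of 3.04 (1.88 to 5.11). Its neighbour from Zfp989 to Zfp933 (chr4:146971976-147848366), which holds Zfp991, Zfp978 and Zfp984, had 83 and 137 in 10 members, a ratio of 1.65 (1.25 to 2.19). The cluster from Zfp712 to Zfp273 (chr13:67038596-67827002) had 27 and 49 in 19 members, a ratio of 1.81 (1.11 to 3.02), and that from Zfp677 to Zfp946 (chr17:21383748-22456689) had 62 and 111 in 18 members, a ratio of 1.79 (1.301 to 2.48). Of the 52 members of these 4 clusters, 43 had the KRAB-like signature. Without them the KO over WT ratio of the members was 0.88 (0.81 to 0.95), and relative to the other genes it was 1.29 (1.19 to 1.39). Since the handling of reads that map to several places was not given, summits may be misplaced among similar genes of a cluster.

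The 7 clusters of chromosome 7 had ratios between 0.50 (Zfp553 to Zfp629) and 1.36 (Zfp787 to Zfp28), each with an interval that holds both 1 and 0.68. All members on chromosome 7 together had a ratio of 1.05 (0.88 to 1.27), against 0.66 in its other genes. The cluster from Zfp84 to Zfp146 (chr7:29768552-30169750) had 56 WT and 43 KO summits in 15 members, a ratio of 0.77 (0.50 to 1.16). The one from Zfp180 to Zfp575 (chr7:24081924-24587641) had 28 in each genotype in 12 members, none of which had the KRAB-like signature. On chromosome 9 the cluster from Zfp653 to Zfp810 (chr9:22055411-22307648) was the densest in WT cells, at 407 per Mb, and had 37 and 25 summits in 5 members. H3K27me3 was absent in both genotypes from the members of 11 of the 16 clusters.

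**Figure D5:**
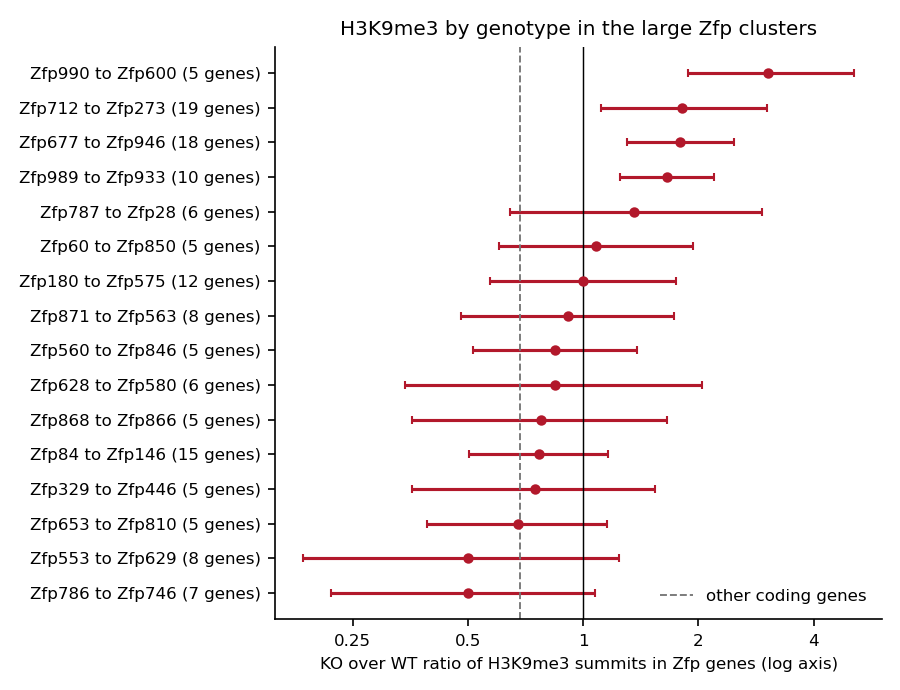
KO over WT ratio of H3K9me3 summits within the Zfp genes of each of the 16 clusters with at least 5 members (points, log axis) with exact conditional 95% intervals (bars), the solid line at a ratio of 1 and the dashed line at the 0.68 of other coding genes. The intervals of 4 clusters, on chromosomes 4, 13 and 17, lie above both lines.

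H3K27me3 was scarce in the Zfp genes outside a few long isolated ones. WT cells had 398 H3K27me3 summits in members, or 36.8 per Mb, against 44.7 in other genes, and KO cells had 325, or 30.05, against 35.9. At least 1 summit was found in 33 members (9.22%) in WT and 30 (8.38%) in KO cells, where 27.3% and 23.7% of all coding genes had one. Clustered members had 7.85 per Mb in WT and 4.71 in KO cells, and isolated members had 57.1 and 47.8, so the ratios were 0.14 (0.094 to 0.19) and 0.098 (0.060 to 0.15). At the starts of members the density was 26.8 per Mb in both genotypes, against 102 and 88.3 in other genes. Zfp423, a regulator of neuronal and fat cell development, had 114 summits in the WT list and 127 in the KO list. Zfp536, a gene of neural differentiation, had 64 and 50, Zfp618 had 47 and 23 and Zfp800 had 39 and 21, followed by Zfp831 with 19 and 21 and Zfp407 with 16 and 12. The first 4 genes held 66.3% of the WT and 68.0% of the KO H3K27me3 summits in members. Without them the ratio of members to other genes was 0.30 in WT and 0.29 in KO cells in place of 0.82 and 0.84, and the ratio of clustered to isolated members was 0.43 and 0.31.

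The KO over WT ratio of H3K27me3 was 0.82 (0.70 to 0.95) in members and 0.80 (0.79 to 0.81) in other genes. With both lists cut to the same length the ratio of members was 1.08 (0.92 to 1.27), so its direction rests on the length of the lists. By the rule of fold H3K27me3 was called higher in WT cells in 7 members (1.955%), against 4.95% of all genes, and higher in KO cells in 2 (0.559%), against 1.17%. Zfp618, with its 47 and 23 summits, was 1 of the 7, and it was also called higher in KO cells for H3K9me3, with 2 and 5.

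The 4 factors, profiled in WT cells, were densest per Mb at the starts of Zfp genes. Arid1a had 202 summits per Mb in the first 2 kb of members and 43.5 in the body, Brg1 had 231 and 50.2, Ctcf had 190 and 37.0 and Rad21 had 258 and 39.4. By number most summits lay in the longer body, with 409 of 585 for Arid1a, 472 of 684 for Brg1, 348 of 516 for Ctcf and 370 of 580 for Rad21. The starts of other coding genes had 158 for Arid1a, 186 for Brg1, 162 for Ctcf and 242 for Rad21. A start with Arid1a was found in 118 members (33.0%, all genes 25.5%), with Brg1 in 143 (39.9%, all genes 29.1%), with Ctcf in 119 (33.2%, all genes 26.7%) and with Rad21 in 159 (44.4%, all genes 37.7%). Against other coding genes with at least 3 fingers, the start density of members was 1.25 times (0.96 to 1.64) for Arid1a and 1.11 (0.87 to 1.41) for Brg1. For Ctcf it was 1.12 (0.86 to 1.47) and for Rad21 0.96 (0.77 to 1.19), so each interval held 1. All 4 together were present at the starts of 36 members (10.1%), against 6.63% of all genes. Of these, 23 were isolated and 13 clustered.

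Isolated members exceeded clustered ones at the start for each factor, as the plot of densities by segment shows. Arid1a had 282 per Mb (221 to 354) at isolated and 155 (121 to 196) at clustered starts. Ctcf had 251 (194 to 320) and 155 (121 to 196). For Brg1 (278 and 204) and Rad21 (309 and 229) the intervals overlapped. At the 3' ends, where H3K9me3 was dense, Ctcf had 46.5 per Mb in members against 73.0 in other genes and Rad21 had 38.05 against 83.6. Other coding genes with at least 3 fingers had 45.7 of Ctcf and 59.3 of Rad21 there. The ratios of members to them were 1.02 (0.59 to 1.76) and 0.64 (0.37 to 1.09). In clustered 3' ends Rad21 had 10 summits, or 22.2 per Mb (10.6 to 40.8).

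Members with known roles were taken in 4 lists. The 5 members that silence imprinted regions or retroelements all had H3K9me3 in both genotypes, and none had H3K27me3. An H3K9me3 summit was found in 81.8% of all members in WT and 72.3% in KO cells, against 63.3% and 45.6% of all coding genes. For H3K27me3 the shares were 9.22% and 8.38% of members, against 27.3% and 23.7% of all coding genes. Zfp445, which guards imprints, had 15 WT and 10 KO H3K9me3 summits. Zfp809, which silences retroviral DNA, had 12 and 10, with 2 and 1 of them in the last 2 kb. Zfp932, which acts on retroelements, had 9 and 6, Zfp568, a repressor of a placental growth factor promoter, had 7 and 2, and Zfp57, the imprint guard of the early embryo, had 1 and 1. Zfp568 and Zfp445 are known KRAB proteins in which the strict signature was not found.

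The 7 developmental regulators were all isolated genes and included 3 with H3K27me3, namely Zfp423, Zfp536 and Zfp503 (1 summit in WT and 3 in KO cells). Of all coding genes, 27.3% had an H3K27me3 summit in WT and 23.7% in KO cells, and 7 genes are too few to set against these shares. Zfp462, a gene of early neural development, had no H3K27me3 and 16 WT and 11 KO H3K9me3 summits. The epidermal regulator Zfp750 had 3 H3K9me3 summits in WT cells and 0 in KO cells, the stem cell marker Zfp42 had 1 and 0, and Zfp703 had 0 and 1. Among the 8 widely used factors, 7 had H3K9me3 in WT cells and 3 had it in KO cells, where 63.3% and 45.6% of all coding genes did, with 29 and 9 summits in all, and none had H3K27me3. Zfp148 had 16 and 7, Zfp335 had 7 and 1, and Zfp143, which binds promoters together with Ctcf, had 0 and 0 beside 6 Ctcf and 6 Rad21 summits. Zfp91 had 10 Arid1a and 13 Brg1 summits, and Zfp207, a mitotic spindle protein, had 9 and 12. Zfp36, which encodes the RNA-destabilizing protein tristetraprolin and no C2H2 finger, had no H3K9me3 and 2 summits each of Arid1a and Brg1, and Zfp106, also an RNA-binding protein, had 4 and 2 H3K9me3 summits.

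The number of fingers was compared last. The 204 members with 10 or more fingers had 154 per Mb (145 to 164) in the WT list and 166 (156 to 176) in the KO list, the 121 with 3 to 9 had 124 and 111, and the 33 with 0 to 2 had 125 and 104. The 302 other coding genes with at least 3 fingers had 84.4 per Mb in WT and 70.5 in KO cells, so the Zfp genes were 1.68 times (1.56 to 1.81) and 2.03 times (1.87 to 2.19) as dense. At the 3' ends these ratios were 1.69 (1.3004 to 2.22) and 1.85 (1.40 to 2.46). Finger number, clustering and the KRAB-like signature go together in this family, and their parts in the density cannot be told apart by these counts alone.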

How the data were processed

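Per the study's methods and the submitters' processing notes, the authors used Bowtie2 on mm10, filtered reads of low quality (SAMtools) and duplicates (Picard), and called peaks with MACS2 over input. Versions were not given in the sources used here. Each deposited list holds 1 summit per peak with a −log10 q-value, all above 1.3, and read depth is unknown. Lists held 70157 to 141657 autosomal summits.

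Summits were assigned to genes of GENCODE vM21 (Python 3.11.15, NumPy 2.4.6, pandas 2.3.3, SciPy 1.17.1, matplotlib 3.10.9), and a summit in overlapping genes counted for each. Of the members, 12 were shorter than 4 kb and were split at the midpoint, and 53 overlapped another gene. Densities have exact Poisson, ratios conditional binomial and shares Wilson 95% intervals. Fingers (C2H2) and the KRAB-like signature (W..L, LY..VM.E) were counted in translated GENCODE coding sequences in place of the planned RefSeq proteins. Finger exons were defined after values were seen.

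Genes named were the 8 with most H3K9me3, the 6 with most H3K27me3, the 5 with the largest difference in either direction, the 3 with the strongest shared 3' summit, clusters of at least 5 members and 22 genes with known roles. The members and lists were chosen with earlier results of these data known. Counting was tested on simulated summits with planted densities. Alternatives covered summit strength, windows, gaps, overlapping genes and left-out chromosomes.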

Additional observations from a re-analysis of the deposited data

How the results depend on the processing

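The comparisons of Zfp genes gave 21 values, each recomputed under several settings. No paired analysis was possible because each group has 1 library and the labels give no replicate numbers. With summits kept from a −log10 q-value of 5 up, the 3' end over start ratio was 6.25 in WT and 5.80 in KO cells, members over other genes was 5.96 (WT H3K9me3), 11.4 (KO H3K9me3), 0.64 (WT H3K27me3) and 0.72 (KO H3K27me3) over the whole gene and 15.3 and 25.2 for H3K9me3 in the last 2 kb, KO over WT was 1.62 over the whole member, 1.91 relative to other genes and 1.25 (0.27 to 6.30) at the start, where the direction turned, clustered over isolated was 4.87 and 6.69 for H3K9me3, shared positions were 79.6% and 71.0%, and linker shares 15.3% and 15.4%. Lists of equal length turned the H3K27me3 KO over WT ratio to 1.08. Windows of 1 kb gave a WT 3' end over start of 1.03. Without overlapping genes, members over other genes was 2.36 and 3.48 and clustered over isolated 2.56 (WT). A cluster gap of 100 kb gave clustered over isolated ratios of 1.94 and 2.62, and a gap to any gene with at least 3 fingers 2.03 and 2.92. A limit of 500 bp gave shared positions of 34.7% and 34.9%, and linkers within 500 bp 11.3% and 11.8%.

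Settings chosen after seeing the data were as follows. Without the 4 members with most H3K27me3, members over other genes was 2.39 and 3.51 for H3K9me3 and 0.30 and 0.29 for H3K27me3, and clustered over isolated was 2.01 (WT H3K9me3), 0.43 and 0.31 (H3K27me3). Without the 4 clusters of chromosomes 4, 13 and 17, KO over WT was 0.88, and 1.29 relative to other genes. Of 117 recomputed values 78 stayed within the interval of the value reported, 37 left it and 2 turned, meaning that they crossed 1 where the interval of the value reported did not hold 1. The H3K9me3 KO over WT ratios whose interval held 1 also crossed it, over the whole member to 0.998 without chromosome 7 and 0.955 without the 5 members with the largest KO excess, and at the 3' end to 1.16 from a −log10 q-value of 5 up and 1.02 with lists of equal length. The unknown depth and the single library per group limit every comparison of genotypes.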

Other observations

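Within the span of the 51 clusters, the DNA between the Zfp genes was dense in H3K9me3 as well. In the WT list it had 172 summits per Mb (161 to 183), below the 216 (202 to 230) of the Zfp genes. In the KO list it had 232 (219 to 245), nearly as much as the 246 (232 to 262) of the Zfp genes. The other coding genes that lie inside the same clusters had 154 per Mb (135 to 175) and 142 (124 to 162), well above the 64.3 and 43.9 of coding genes that are not Zfp genes as a whole. They were set apart by symbol only, so they can include zinc finger genes with other names, which were not separated here. H3K27me3 had the opposite order, with 85.5 per Mb in those other genes, 34.4 between genes and 8.01 in the Zfp genes of the clusters in WT cells. Ctcf was also sparser in the Zfp genes, at 40.7 per Mb, than in the other coding genes of the clusters, at 64.2.

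Repeat DNA, read as soft-masked bases of the reference, made up 29.6% of the bases of Zfp genes. It held 33.6% (31.2 to 35.95) of their WT and 39.4% (36.9 to 41.8) of their KO H3K9me3 summits. The difference between genotypes was larger in isolated members (28.0% and 37.8%) than in clustered ones (37.0% and 40.0%), and that difference was not tested. In coding genes other than Zfp genes the shares were 29.0% and 39.0%. H3K27me3 summits in members fell in repeats less often, at 17.6% in WT and 11.1% in KO cells.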
